A study of Mus musculus with 8 samples.

Results

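Loss of the transcription factor Osr1 was examined in fibro-adipogenic progenitors (FAPs) of injured muscle at 7 days post injury (dpi), as 2 Osr1cKO against 2 control RNA-seq libraries. These 4 libraries were all those labelled 7 dpi among the 8 of the series, and no 3 dpi library entered the test. Of 55276 gene symbols listed, 15955 autosomal genes passed a filter on low values and were tested. Controls were Osr1flox/+ CAGG Cre+ mice, so they carried 1 recombined Osr1 allele, and Osr1cKO were Osr1flox/flox CAGG Cre+ mice. Both genotypes carried the tamoxifen-inducible CAGG-CreER, which is ubiquitous and not restricted to FAPs, and both received tamoxifen from the time of injury. The injury was a freeze-pierce lesion of the tibialis anterior. Mice were between 4 and 6 months old. Recombination replaces Osr1 by eGFP, and GFP+ cells free of blood and endothelial surface markers were sorted. Each library was made from 4 pooled mice, so 2 pools stood for each genotype and p-values measure the spread between pools.

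FAPs are interstitial mesenchymal cells of skeletal muscle that are known to multiply after injury, to lay down provisional matrix and to signal to muscle stem cells and macrophages. They can turn into matrix-producing fibroblasts or fat cells. Osr1 is a zinc finger factor of embryonic limb connective tissue that FAPs express again after injury. The comparison asked what FAPs express differently without it once the early inflammatory phase has passed.

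Values are in TPM, a share of all transcripts in a library corrected for gene length, and are printed as deposited. The libraries held between 36516534 and 41163504 recovered fragments. Noncoding nuclear transcripts took 16.4% and 15.7% of TPM in controls and 12.4% and 9.25% in Osr1cKO, so values were rescaled between libraries by a trimmed mean of log ratios before testing. Fold changes are log2 of Osr1cKO over control after 1 TPM was added to each value, so for low genes they come out too small. A gene was called at a fold change over 1.2 and a Benjamini-Hochberg adjusted p under 0.1 from limma. A looser rule, fold change over 1.2 and unadjusted p under 0.05, does not correct for the number of genes tested. It is used to count list members against its share over all genes, and where a single gene is said to have passed it, that is a description and not a call. FAP markers were well expressed in every library, with Pdgfra between 196.9 and 228.9 TPM and Dcn between 2221 and 2745 TPM. The leukocyte gene Ptprc was at most 0.216 TPM. A list of 17 FAP identity genes, Osr1 among them, still leaned lower in Osr1cKO, with 14 lower values and a median of -0.19. Its members passing the looser rule were 4 lower and 1 higher (23.5% and 5.88% against 6.05% and 5.10% of all genes). That median shrank to -0.03 once Osr1cKO replicate 1 was dropped. It was 0.08 at 3 dpi, where 10 of the 17 were higher.

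The libraries of the genotypes also differed in sex-linked RNA, which bears on every result that follows. Xist, the noncoding RNA of the inactive X chromosome in females, stood at 12.4 and 0.0253 TPM in controls and at 109.9 and 102.6 TPM in Osr1cKO. The Y-linked helicase gene Ddx3y stood at 47.5 and 48.6 TPM in controls and at 10.5 and 2.22 TPM in Osr1cKO. Eif2s3y, Kdm5d and Uty, also Y-linked, were lower in both Osr1cKO libraries in the same way. Both control pools thus held mostly male RNA and both Osr1cKO pools mostly female RNA, and genotype and sex cannot be told apart at 7 dpi. At 3 dpi, where each library came from 1 mouse, Xist lay between 33.9 and 52.9 TPM in all 4 libraries and Ddx3y was listed at 0 in all 4. Differences at 3 dpi are given beside the gene groups below as a description, from other mice without this imbalance and at another stage of repair.

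**Figure D1:**
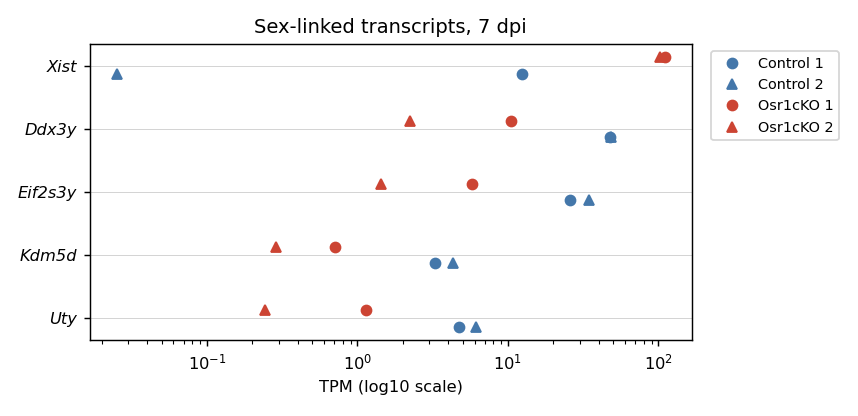
TPM on a log10 axis of Xist and of 4 Y-linked genes in the 2 control libraries (blue) and the 2 Osr1cKO libraries (red). Xist is at 109.9 and 102.6 TPM in Osr1cKO, and the 4 Y-linked genes lie lower there than in both controls.

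Osr1 (chr12:9570116-9581500, plus strand, mm10) itself stood at 67.6 and 71.6 TPM in controls and at 64.4 and 60.8 TPM in Osr1cKO. Both Osr1cKO libraries were below both controls, by -0.28 on the log2 scale (SE 0.084, adjusted p = 0.312 by limma), which passed the looser rule and was not called. The deposited value covers the whole gene, including the first exon that the recombined allele keeps, so it checks the deletion only in part. The 3 nearest coding genes on each side were Wdr35, Ttc32, Matn3, Rdh14, Nt5c1b and Kcns3, and 0 of the 5 of them that were tested passed the looser rule. Within 5 Mb, 37 other genes were tested, and 4 were higher (Gm35638, Ddx1, Tubb2a-ps2, Sdc1) and 1 lower (Hs1bp3) by that rule. This is 13.5% of the window against 11.1% of all autosomal genes tested, and these 5 genes are named because the count is small.

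Across the autosomes, 3 genes were called higher and 9 lower in Osr1cKO FAPs, which is 0.0188% and 0.0564% of the genes tested. The smallest adjusted p was 0.0856, and 0 genes passed an adjusted p of 0.05. By the looser rule 813 genes were higher (5.10%) and 965 lower (6.05%), and 2012 genes had an unadjusted p under 0.05 whatever their fold change, where a share of 5% would be 798. The median log2 fold change of all tested genes was 0.00. Without rescaling that median was 0.11, and the looser rule gave 2218 higher and 452 lower genes, so changes are reported relative to the bulk of genes. Rescaling to the same sum over protein-coding genes gave 1232 higher and 729 lower. Non-overlap of the genotypes was common with 2 libraries each. Both Osr1cKO libraries lay above both controls in 42.8% of genes and below them in 10.7% on deposited TPM, and in 22.7% and 23.2% after rescaling.

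The 3 genes called higher were an inhibitor of proteases, a granzyme and a membrane glycoprotein. Slpi, a secreted inhibitor of neutrophil elastase, had 5.11 and 3.61 TPM in controls and 53.0 and 37.8 TPM in Osr1cKO, which is 2.99 on the log2 scale (SE 0.23, adjusted p = 0.0856 by limma). Gzmc, a granzyme, had 2.08 and 1.52 TPM in controls and 9.65 and 12.0 TPM in Osr1cKO (log2 fold change 1.97, SE 0.18). Emb, or embigin, a partner of lactate transporters at the cell surface, had 68.8 and 69.5 TPM in controls and 127 and 133 TPM in Osr1cKO (0.77, SE 0.067). Slpi was the widest apart. Of 6 neutrophil markers, which are of interest beside an elastase inhibitor, 3 were tested, 3 had a higher value and 0 passed the looser rule, with a median of 0.49, and their summed level overlapped between genotypes at 3.23 and 9.18 against 8.48 and 17.2 TPM. Emb has the antisense gene Gm17509 over its exons, and the counting was not stated to use strand.

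Slpi and Gzmc belong to a list of 12 genes, the granzymes and Slpi, of which 7 were tested. By the looser rule 5 were higher and 1, Gzmm, was lower, against 5.10% and 6.05% of all genes, and 5 of the 12 could not be tested. Gzme went from 4.66 and 1.58 TPM to 19.8 and 24.8 TPM, Gzmd from 1.73 and 0.0940 to 7.77 and 10.4 TPM, and Gzmb from 0 and 0.0631 to 2.68 and 1.30 TPM. Gzmc, Gzmd and Gzme are near-identical neighbours on chromosome 14 between which reads may have been split, so their separate levels are uncertain. Gzmb was near 0 in controls and passed the filter on low values only through the Osr1cKO libraries, so its place among the 5 was set by that filter. At 3 dpi 6 of the 7 were higher, with a median of 0.47, but the libraries of Slpi, Gzmc and Gzme overlapped between genotypes there. Slpi had 3.81 and 5.26 TPM in controls and 2.61 and 8.09 TPM in Osr1cKO, and Gzmc was at most 1.24 TPM. Gzme had 0.614 and 1.37 TPM in controls and 14.8 and 0.834 TPM in Osr1cKO. T and natural killer cells, which usually make granzymes, were barely measured. Of 15 lymphoid markers 4 were tested, and in all 4 both Osr1cKO libraries lay below both controls after rescaling. By the looser rule 2 were lower (50% against 6.05% of all genes). These were the B cell gene Cd79a (10.06 and 11.3 against 7.71 and 7.07 TPM) and Il2rb (1.32 and 1.65 against 0.703 and 0.704 TPM). The summed level of the 15, to which Cd79a gave the most, was 19.2 and 16.9 TPM in controls and 11.0 and 11.8 TPM in Osr1cKO. The T cell gene Cd8a and the B cell gene Ms4a1 were listed at 0 in all 4 libraries, and the natural killer gene Ncr1 was at most 0.0602 TPM. The T cell gene Cd3e reached 4.28 TPM in control replicate 1 and at most 0.0666 TPM in the other 3 libraries.

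Among the 9 genes called lower, 2 encode parts of elastic and adhesive matrix. Eln, the elastin precursor, fell from 249 and 247 TPM to 92.9 and 121 TPM, a log2 fold change of -1.35 (SE 0.11, adjusted p = 0.0856 by limma), with Gm30003 on the opposite strand. Fbln7, a fibulin, had 193 and 209.8 TPM in controls and 117 and 123 TPM in Osr1cKO (-0.88, SE 0.074). Adamts17, a secreted metalloprotease that binds fibrillin, went from 13.0 and 14.3 TPM to 5.24 and 5.12 TPM (-1.37, SE 0.13).

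Of the other called genes, Cxcl9, a chemokine induced by interferon gamma, had 118 and 112 TPM in controls and 56.4 and 60.7 TPM in Osr1cKO (-1.10, SE 0.073). Fgl2, a secreted fibrinogen-like protein with roles in immune regulation, had 231 and 235 TPM against 133 and 149 TPM (-0.86, SE 0.073). Zim1 and Peg3, imprinted neighbours on chromosome 7, had 27.2 and 32.9 against 8.71 and 10.4 TPM, and 57.8 and 58.4 against 29.7 and 33.5 TPM. Gcc1, a Golgi coiled-coil protein whose exons overlap Arf5 and Fscn3, had 46.3 and 48.1 against 26.8 and 29.3 TPM. Gm45640, a gene model on chromosome 8 without a known function, had 8.07 and 8.89 against 2.47 and 2.80 TPM. Leaving out 1 library changed the number of calls from 9 to 433, and the calls shared with the 12 numbered 12, 12, 3 and 4 without control replicate 1, control replicate 2, Osr1cKO replicate 1 and Osr1cKO replicate 2.

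**Figure D2:**
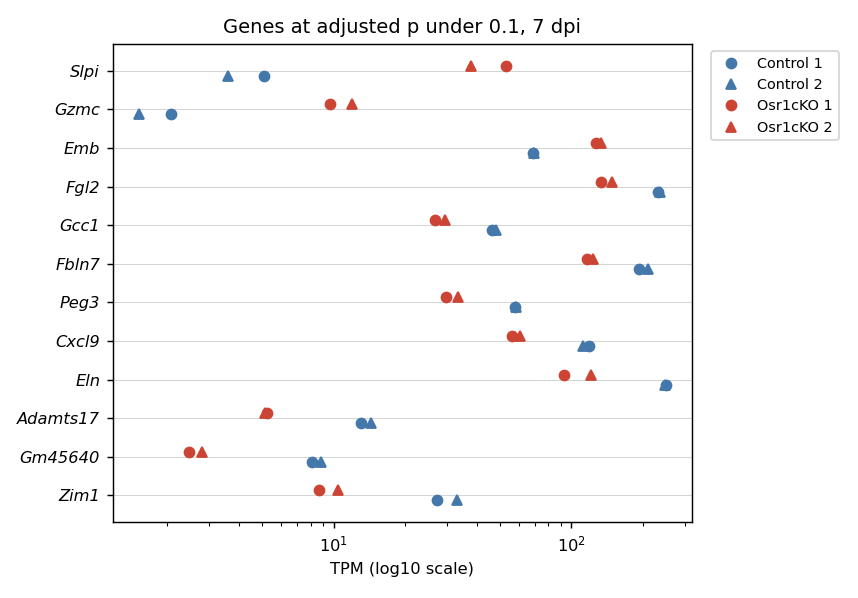
TPM on a log10 axis of the 12 called genes in each library, controls blue and Osr1cKO red, ordered from the largest increase to the largest decrease. Slpi at the top is at 53.0 and 37.8 TPM in Osr1cKO against 5.11 and 3.61 TPM in controls, and the 12 genes were chosen by their p-value in these libraries.

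Genes of cholesterol synthesis were higher in Osr1cKO FAPs almost without exception. Cells make cholesterol from acetyl-CoA through mevalonate and squalene, and SREBP2, encoded by Srebf2, switches on the enzymes when sterols in the endoplasmic reticulum are low. Of 22 genes listed and tested, 22 had a higher value in Osr1cKO and 21 passed the looser rule, with 0 called after adjustment. That is 95.5% of the list against 5.10% of all genes, and the median log2 fold change was 0.71 against 0.00.

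At the entry of the pathway, Hmgcs1 went from 78.9 and 61.4 TPM to 124 and 144 TPM. At the squalene steps, Fdft1 went from 10.4 and 8.17 TPM to 20.97 and 21.9 TPM and Sqle from 26.3 and 17.8 to 50.9 and 47.5 TPM. Both enzymes were about level between the Osr1cKO pools. Past lanosterol, the demethylase gene Cyp51 went from 34.1 and 28.3 to 82.1 and 72.7 TPM (1.16, SE 0.13, adjusted p = 0.123 by limma), and Msmo1 from 7.16 and 6.37 to 16.1 and 17.0 TPM. Both genes had similar values in the Osr1cKO pools. Outside the pathway proper, Insig1, the sterol-sensing brake on SREBP, had 69.3 and 63.7 TPM in controls and 121 and 123 TPM in Osr1cKO. Srebf2 had 53.6 and 49.1 against 74.3 and 74.4 TPM. Pmvk, phosphomevalonate kinase, was the 1 member that did not pass, at 13.97 and 16.8 against 18.1 and 16.4 TPM, and it was the 1 whose libraries overlapped.

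**Figure D3:**
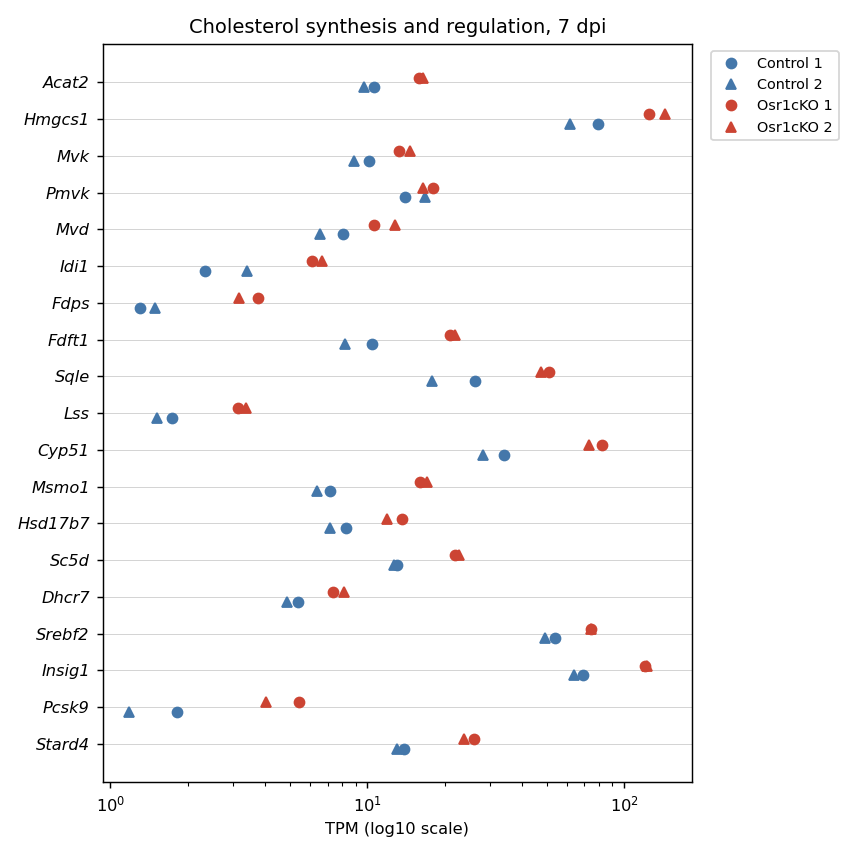
TPM on a log10 axis of 19 genes of cholesterol synthesis (in pathway order) and its regulation in each 7 dpi library. In 18 genes both Osr1cKO libraries (red) lie right of both controls (blue), as in 42.8% of all genes on deposited TPM, and Pmvk overlaps.

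The difference did not rest on 1 library. Between 18 and 20 members passed the looser rule as each library was left out, and the median lay between 0.64 and 0.74. With limma-voom on recovered fragments, 13 of the 22 had an adjusted p under 0.1. At 3 dpi, 7 of the 22 were higher and the median difference was -0.07. Sex makeup differed at 7 dpi only, and its part in the sterol difference was not tested. Fatty acid synthesis, which the related SREBP1 controls, moved less than cholesterol synthesis. Its share passing the looser rule as higher was still 40%, against 5.10% of all genes. Of 10 genes, 4 passed the looser rule as higher, with a median of 0.17, and 2 passed without control replicate 2 or without Osr1cKO replicate 1. At 3 dpi 8 of the 10 were higher, with a median of 0.23. Fasn, fatty acid synthase, had 57.6 and 52.5 against 80.6 and 73.3 TPM. Srebf1 had 32.5 and 33.9 against 36.0 and 35.3 TPM as deposited, and its libraries overlapped between genotypes after rescaling.

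The core of the sterol regulatory element, TCACNCCAC on either strand, was searched in promoters after these values had been seen. RefSeq promoter sequences (GRCm38.p6, from 250 bases before to 50 after each start) matched 14 of the 22 genes by symbol, and 1 of the 14 held it, against 1.45% of 25748 genes with a promoter. The gene was Hmgcs1 (chr13:119690101-119690400, plus strand), whose promoter is shown because it is the one of the group with a match, with the match in capitals:
Hmgcs1: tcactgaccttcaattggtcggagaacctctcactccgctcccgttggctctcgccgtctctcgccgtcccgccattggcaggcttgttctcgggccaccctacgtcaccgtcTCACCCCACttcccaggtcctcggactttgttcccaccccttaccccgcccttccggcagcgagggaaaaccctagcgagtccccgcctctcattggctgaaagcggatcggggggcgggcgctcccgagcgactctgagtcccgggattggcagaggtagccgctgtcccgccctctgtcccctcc

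Genes of cell division were also higher in Osr1cKO FAPs. They included Birc5, which guards chromosome segregation, at 7.14 and 5.62 TPM in controls and 14.5 and 12.2 TPM in Osr1cKO, and the mitotic kinase Plk1 at 7.64 and 6.06 against 15.6 and 11.6 TPM. The kinase Aurkb had 2.20 and 2.06 against 3.53 and 4.52 TPM. Of 36 genes of the cell cycle and DNA replication, 34 had a higher value, 17 passed the looser rule as higher (47.2% against 5.10% of all genes) and 0 as lower, with a median of 0.46. Mki67, the usual proliferation marker, had 19.4 and 10.4 TPM in controls and 24.1 and 25.1 TPM in Osr1cKO (0.62, SE 0.27, unadjusted p = 0.0645 by limma) and did not pass. Control replicate 2 had the lowest mean level of the list. Without it the median was 0.24 and 5 members passed, and without Osr1cKO replicate 1, 5 passed as well, whereas 26 passed without control replicate 1. At 3 dpi, 33 of the 36 were higher, with a median of 0.18 and Mki67 between 69.3 and 122 TPM.

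Smooth muscle contractile genes, markers of activated myofibroblasts, followed the same library. Acta2, alpha smooth muscle actin, had 368 and 175 TPM in controls and 677 and 527 TPM in Osr1cKO, and Tpm1, a tropomyosin, had 195 and 146 against 319.5 and 269 TPM. Cnn1, calponin, had 4.24 and 1.66 against 9.69 and 7.95 TPM. All 12 genes of the list had a higher value and 5 passed the looser rule (41.7% against 5.10% of all genes), with a median of 0.52. With control replicate 2 left out the median was 0.20, and with the other control left out 0.86, so the size rested on which control was kept. In the first case 4 members passed the looser rule as higher and 1 as lower, in the second 10 as higher, and without Osr1cKO replicate 1, 3 as higher. At 3 dpi 11 of 12 were higher, with a median of 0.48. Pericyte markers, which share contractile genes, overlapped between genotypes, at a summed 141.8 and 67.1 TPM in controls and 86.7 and 120.2 TPM in Osr1cKO.

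Tendon genes leaned higher. Scx, the tendon transcription factor, had 8.55 and 7.27 TPM in controls and 12.9 and 26.3 TPM in Osr1cKO (1.01, SE 0.30, adjusted p = 0.315 by limma), and Fmod, the proteoglycan fibromodulin, had 156 and 178 against 263 and 289 TPM. Of 11 genes tested 5 passed the looser rule as higher and 1 as lower (45.5% and 9.09% against 5.10% and 6.05% of all genes), with a median of 0.38. The lower gene was Cilp, a cartilage intermediate layer protein, at 2163 and 2346 against 1692 and 1602 TPM. Without Osr1cKO replicate 2, whose Scx value stood apart, the median was 0.24 and 3 members passed in each direction. At 3 dpi 6 of the 11 were higher, with a median of 0.04.

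Matrix genes did not move as one block. Among 11 fibrillar collagens, 2 passed as higher, Col11a1 (48.7 and 49.8 against 82.8 and 78.2 TPM) and Col24a1 (18.2 and 13.5 against 23.97 and 26.6 TPM), both minor chains, which is 18.2% against 5.10% of all genes, and the list median was -0.01. In the absence of control replicate 2 or of Osr1cKO replicate 2, 1 passed. At 3 dpi 9 of the 11 were higher, with a median of 0.42. The abundant Col1a1 overlapped between genotypes at between 24362 and 28083 TPM. Of 24 genes for collagen processing and crosslinking, 5 were higher (20.8% against 5.10% of all genes) and 1 lower, with a median of 0.13, and at 3 dpi 18 were higher, with a median of 0.19. Without control replicate 2 the median was 0.05 and 1 was higher, without Osr1cKO replicate 1 3 were higher, and without control replicate 1 9 were. Loxl2, a lysyl oxidase that crosslinks collagen, had 481 and 439.9 against 641 and 668 TPM, and P3h2, a prolyl hydroxylase of basement membrane collagen, had 8.80 and 4.92 against 17.7 and 15.5 TPM.

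Basement membrane genes were lower. This sheet around myofibers and vessels is built from laminins, type IV collagen, nidogens and perlecan. Lama2, the laminin chain of muscle, had 122 and 139 TPM in controls and 81.5 and 96.3 TPM in Osr1cKO (-0.68, SE 0.10, adjusted p = 0.207 by limma). Nid1, nidogen, had 1283 and 1478 against 963 and 1051 TPM, Col4a1 1016 and 1096 against 849 and 825 TPM, and Col15a1 376 and 368 against 241 and 298 TPM. In each of these both Osr1cKO libraries lay below both controls, as in 10.7% of all genes on deposited TPM. Of 26 genes 24 had a lower value, 11 passed the looser rule as lower (42.3% against 6.05% of all genes) and 0 as higher, with a median of -0.23. The exception among abundant genes was Nid2 at 213 and 210.4 against 353 and 237 TPM, which did not pass. Between 6 and 11 members passed as each library was left out, with 6 without Osr1cKO replicate 2. At 3 dpi 9 of 26 were higher, with a median of -0.08.

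Elastic fibre genes included the called Eln and Fbln7. Mfap4, a microfibril protein, had 922 and 884 TPM in controls and 682 and 679 TPM in Osr1cKO, and Mfap2 had 513 and 613 against 404 and 411 TPM. Of 20 genes 6 passed the looser rule as lower (30% against 6.05% of all genes) and 0 as higher, with a median of -0.20. As each library was left out, 5 to 8 passed as lower and 0 to 2 as higher. The fibrillin Fbn1, the main scaffold of microfibrils, had 1182 and 1228 against 1127 and 1183 TPM and did not pass. Its libraries overlapped on deposited TPM, and after rescaling both Osr1cKO libraries lay below both controls. At 3 dpi 13 of 20 were higher, with a median of 0.16.

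Imprinted genes, which are expressed from 1 parental allele and many of which act in fetal growth, were lower in Osr1cKO beyond Zim1 and Peg3. H19 had 3126 and 2953 TPM in controls and 2074 and 1639 TPM in Osr1cKO, and Dlk1 had 64.8 and 91.8 against 43.2 and 32.9 TPM. Peg10 had 69.2 and 77.7 against 48.8 and 51.1 TPM, Meg3 263 and 341 against 228 and 206 TPM, and Cdkn1c, an inhibitor of the cell cycle, 253 and 279.7 against 214 and 205 TPM. In each of them both Osr1cKO libraries lay below both controls, as in 10.7% of all genes on deposited TPM. Both maternally expressed genes (H19, Meg3, Cdkn1c, Zim1) and paternally expressed genes (Peg3, Dlk1, Peg10, Igf2) were among them. Of 35 tested, 15 passed the looser rule as lower (42.9% against 6.05% of all genes) and 0 as higher, 2 of the 15 were called after adjustment, and the median was -0.20. In 4 of the 35 the value was higher. Mest had 647 and 619.6 against 641 and 635 TPM, and Igf2r 186 and 156 against 183 and 185 TPM. As deposited, Mest and Igf2r overlapped between genotypes, and after rescaling both came out slightly lower. As each library was left out, between 14 and 16 passed. At 3 dpi 15 of 35 were higher, the median was -0.06 and Zim1 was at most 2.54 TPM.

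**Figure D4:**
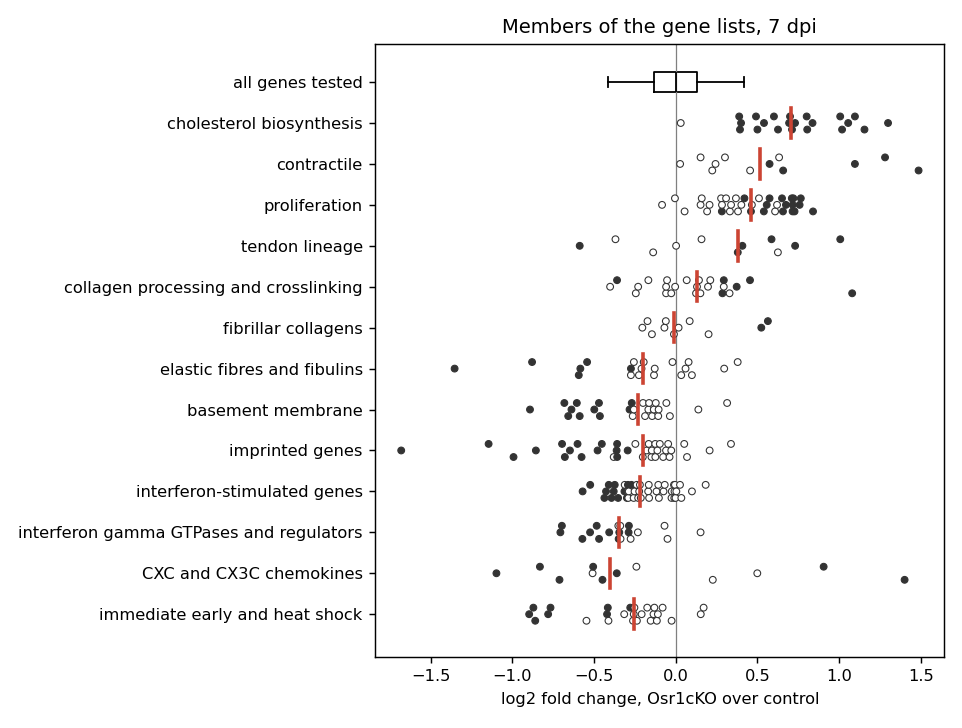
Log2 fold change (Osr1cKO over control, log2(TPM + 1) scale) of each tested member of 13 gene lists; filled points passed the looser rule, the red bar is the list median, and the box for all tested genes spans the quartiles with whiskers at the 5th and 95th percentiles. Cholesterol genes lie right of 0 with a median of 0.71, and imprinted, basement membrane and interferon genes lie mostly left of it.

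Genes of the interferon gamma response were lower. Interferon gamma induces chemokines and GTPases that attack intracellular pathogens. Of 19 such GTPases and regulators tested, 18 had a lower value and 11 passed the looser rule as lower (57.9% against 6.05% of all genes), with a median of -0.35. Irgm1 had 69.6 in both controls and 51.4 and 58.6 TPM in Osr1cKO, Iigp1 had 110.0 and 123 against 73.3 and 82.8 TPM (-0.71, SE 0.087, adjusted p = 0.139 by limma), and the regulator Irf1 had 256 and 255 against 161 and 237 TPM. In the wider list of interferon-stimulated genes, 13 of 44 passed as lower (29.5% against 6.05%) and 0 as higher, with a median of -0.22. Oas2, an antiviral sensor, had 41.3 and 44.0 against 32.8 and 37.3 TPM. Ifitm3 had 2912 and 2819 against 3145 and 3265 TPM as deposited, and its libraries overlapped between genotypes after rescaling.

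Both interferon lists leaned on Osr1cKO replicate 1. Without it, 7 of the 19 and 5 of the 44 passed and the medians were -0.27 and -0.08. Without control replicate 2, 7 and 6 passed, and without Osr1cKO replicate 2, 13 and 21. At 3 dpi the medians were -1.48 and -1.39, and 1 gene of each list was higher. The part of sex makeup in the difference at 7 dpi was not tested. Among chemokines, Cxcl9 and Cxcl10 (403 and 378 against 206 and 281 TPM), which draw T cells, were lower, and so was Cxcl2, which draws neutrophils, at 325 and 383 against 279 and 289 TPM. Cxcl5, another neutrophil attractant, was higher at 207 and 121 against 719 and 296 TPM. Of 12 CXC and CX3C chemokines 6 passed as lower and 2, Cxcl5 and Pf4, as higher (50% and 16.7% against 6.05% and 5.10% of all genes). Pf4, at 1.03 and 0.503 against 2.60 and 2.31 TPM, was too low to be tested once either Osr1cKO library was left out, and 0 passed as higher without Osr1cKO replicate 1. The list median was -0.40, and -0.24 without control replicate 2. At 3 dpi 5 of the 12 were higher, with a median of -0.13.

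Promoters of these GTPases carry the elements through which interferons act. Interferon-stimulated response elements were searched as GAAA, any 2 bases and GAAA, and gamma-activated sites as TTCNNNGAA, both on either strand and free to overlap, in the same RefSeq windows, with every listed start of a gene counted. Of the 14 GTPases and regulators with a promoter, 10 held the first and 8 the second, and 6 held both, against 4.02%, 9.64% and 0.610% of 25748 genes. Among the 609 genes that were lower by the looser rule and had a promoter, the shares were 6.90% and 10.02%, and among 504 that were higher, 3.57% and 7.94%. The list was made of known interferon targets, so its share is a property of the list and not of the response to Osr1 loss. Within it, the 10 genes with the response element had a median of -0.34 and the 4 without it -0.43.

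In 4 GTPase genes on chromosome 11 the pair recurred at the same spacing, the gamma-activated site starting 11 bases before the response element. They are shown, on the strand of the gene with both elements in capitals, because Igtp and Irgm2 passed the looser rule and all 4 share the arrangement:
Igtp: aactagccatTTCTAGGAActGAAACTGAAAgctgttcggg
Irgm2: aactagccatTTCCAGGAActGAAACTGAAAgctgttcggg
Tgtp1: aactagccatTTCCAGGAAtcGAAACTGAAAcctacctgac
Tgtp2: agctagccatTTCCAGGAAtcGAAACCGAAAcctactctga

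These lie at chr11:58199501-58199541 and chr11:58214892-58214932 on the plus strand, and at chr11:48992304-48992344 and chr11:49064263-49064303 on the minus strand. Igtp had 75.8 and 82.4 TPM in controls and 64.3 and 71.8 TPM in Osr1cKO, and Irgm2 had 52.6 and 61.9 against 35.6 and 49.2 TPM, and both passed the looser rule. Tgtp2 (7.67 and 9.16 against 6.87 and 7.26 TPM) and Tgtp1 (1.74 and 0.594 against 1.23 and 1.01 TPM) did not. Igtp and Irgm2 overlap on the same strand, and Tgtp1 and Tgtp2 are near-identical copies, so the division of reads within each pair is uncertain.

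Genes picked from outside the lists above, most of them for secreted signals, moved in both directions. Of 20 cytokine genes tested, 3 passed the looser rule as higher and 3 as lower (15% each, against 5.10% and 6.05% of all genes). Of the genes named next, only Il6 belonged to that cytokine list, among those that passed as lower. Inhba was counted with the TGFβ ligands below. Ereg, an EGF receptor ligand, had 21.3 and 13.6 TPM in controls and 125 and 81.8 TPM in Osr1cKO (2.37, SE 0.28, adjusted p = 0.139 by limma), and Inhba, which encodes the activin A subunit, had 69.8 and 52.3 against 229.9 and 146 TPM. Saa3, an acute phase protein, had 37.0 and 30.7 against 112 and 87.9 TPM. Il6 went the other way, at 296 and 363 against 217 and 219 TPM, as did Penk, the enkephalin precursor, at 131 and 154 against 78.5 and 83.1 TPM. Spry1, a feedback inhibitor of receptor tyrosine kinases, had 64.1 and 67.9 against 39.3 and 43.7 TPM (-0.79, SE 0.078, adjusted p = 0.101), just outside the call.

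Genes of TGFβ ligands, receptors and regulators passed the looser rule about as often as all genes. Genes of the TGFβ response passed it as higher more often, on a list that held genes already reported as raised in these data. Tgfb1 had 43.7 and 42.5 TPM in controls and 56.8 and 51.7 TPM in Osr1cKO, with a log2 fold change of 0.19 (SE 0.093, adjusted p = 0.462 by limma). Tgfb2 had 96.3 and 92.0 against 113 and 114 TPM, and neither passed the looser rule. Tgfb3 had 274 and 263 against 221 and 252 TPM and passed as lower (-0.32, SE 0.082). Of 23 ligands, receptors and regulators tested, 2 were higher (Inhba and Fstl3) and 1 lower, which is 8.70% and 4.35% against 5.10% and 6.05% of all genes. Without Osr1cKO replicate 1, 0 were lower. At 3 dpi 11 were higher and 11 lower, with a median of 0.00. Of 19 genes of the TGFβ response tested, 4 passed as higher and 1 as lower (21.1% and 5.26% against 5.10% and 6.05% of all genes). Tgfbi, Scx and Loxl2 were among the 4. The paper had named these genes, with Col7a1 and Timp1, as raised TGFβ targets in the same 7 dpi FAPs. The share of the list is therefore not independent of these data. Scx and Loxl2 were also counted in the tendon and crosslinking lists above. The median of the 19 was -0.06, and at 3 dpi 13 of them were higher, with a median of 0.24. The induced genes Tgfbi, at 391 and 308 against 509 and 621 TPM, passed as higher, and Col7a1, at 6.28 and 6.61 against 13.96 and 8.35 TPM, did not. Timp1 is X-linked and stood outside the autosomal test, at 868 and 751.7 TPM in controls and 1665 and 1194 TPM in Osr1cKO.

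Other RNA moved with genotype too. Heat shock genes were higher in controls, with Hspa1a at 947 and 680.3 against 392 and 601 TPM and Dnajb1 at 613 and 615 against 332 and 463 TPM. In the list of immediate early and heat shock genes 8 of 26 passed as lower (30.8% against 6.05% of all genes), with a median of -0.25, and at 3 dpi 9 were higher, with a median of -0.12. Myofiber transcripts were also higher in controls, at a summed 97.4 and 80.1 TPM over 15 markers against 54.8 and 55.5 TPM in Osr1cKO. Of the 13 tested, 6 passed as lower (46.2% against 6.05% of all genes). Muscle stem cell markers stood at a summed 77.5 TPM in control replicate 1 and between 37.2 and 38.9 TPM in the other 3 libraries, with Pax7 at 2.30 TPM against at most 0.444 TPM. None of the 15 myofiber and 7 stem cell markers was at 0 in all libraries. Macrophage markers summed to 67.8 and 76.4 against 77.8 and 113.4 TPM, and 14 of the 15 had a higher value, as had 50.2% of all genes. Only 1 of them passed the looser rule, which is 6.67% against 5.10% of all genes. Their median was 0.11, and at 3 dpi 6 of the 15 were higher, with a median of -0.04. Endothelial markers summed to 52.4 and 65.6 against 54.9 and 78.6 TPM. Of the 10, 9 had a higher value and 2, Cdh5 and Emcn, passed (20% against 5.10% of all genes). The median was 0.24, and 0.20 to 0.29 when 1 library was dropped. Cdh5 had 2.32 and 2.13 against 4.16 and 3.74 TPM, and Emcn, near the floor, had 0.0686 and 0.235 against 0.615 and 0.693 TPM. At 3 dpi 0 of the 10 endothelial markers were higher, with a median of -0.30. In bulk RNA, fewer cells of a type and less RNA per cell cannot be told apart, and the part of these transcripts in the differences above was not tested.

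**Figure D5:**
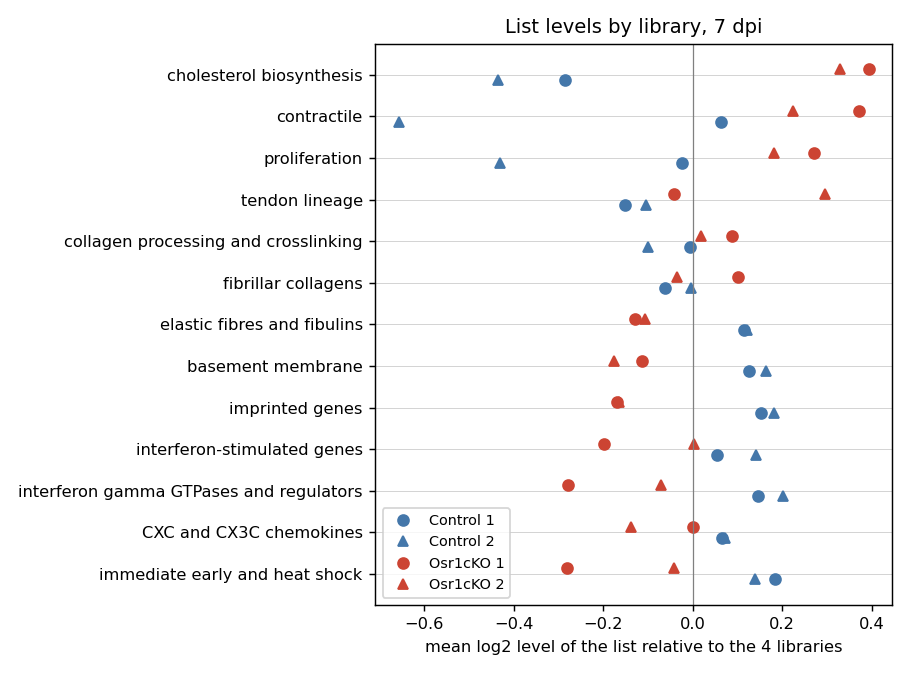
Mean log2 level of each list in each 7 dpi library, relative to its mean over the 4 libraries, controls blue and Osr1cKO red. All lists shown but fibrillar collagens separate by genotype. For contractile and proliferation genes control replicate 2, at -0.66 and -0.43, lies far left of control replicate 1, at 0.06 and -0.02.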

How the data were processed

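Polyadenylated RNA of sorted FAPs was sequenced from stranded libraries and aligned by the authors with STAR to mm10, with DESeq2 named for normalisation. The counter, and whether it used strand, are not given in the sources used here. The deposited values are TPM per gene, 1 table per library. Of 55385 entries, 109 of 106 duplicated symbols were left out. TPM steps gave whole fragments for 98.8% to 98.9% of low values (tolerance 0.02), with library totals as printed above. Their number limits precision for low genes.

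Log2(TPM + 1) values, rescaled between libraries by a trimmed mean of log ratios (30% trimmed), were compared with limma 3.58.1 in R 4.3.3 (lmFit, eBayes with trend) over the 4 libraries of 7 dpi. The fit was tested on simulated data. Named genes were Osr1 and its 3 neighbours on each side, every called gene, the 10 coding genes of smallest p per direction, up to 3 members per list and direction, and fixed genes of TGFβ, imprinting and interferon. Not all of them are described. The members and lists were chosen with earlier results of these data known. Promoters were RefSeq windows. X- and Y-linked genes stood outside the test. Alternatives covered scaling, filters, pseudocounts, limma-voom on recovered fragments, a robust fit, all chromosomes, a replicate block and leaving out each library. Some genes are not reported here.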

Additional observations from a re-analysis of the deposited data

Results flagged for a closer look

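Fbln7 stood out because its difference changed sign between the stages. It was lower in both Osr1cKO libraries at 7 dpi, and at 3 dpi it was higher in both, by 0.68 on the log2 scale, with 14.4 and 13.1 TPM in controls and 28.2 and 18.2 TPM in Osr1cKO. The difference between the stages was not tested.

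Xist stood out as a signal outside the autosomal test. It was at 102.6 TPM in the lower of the Osr1cKO libraries at 7 dpi, above both controls at 12.4 and 0.0253 TPM.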

How the results depend on the processing

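Main calls numbered 3 higher and 9 lower. They became 12 and 6 without rescaling, 0 and 0 with protein-coding sum scaling, with no filter or at an adjusted p under 0.05, 74 and 120 with limma-voom, and 14 and 14 with the replicate block. The block shared 9 calls with the 12, and same-numbered libraries correlated only at 0.072, so the numbers were not shown to pair samples. By the looser rule, 2218 were higher and 452 lower without rescaling, and 1232 higher with protein-coding sum scaling. Leaving out 1 library gave 1 to 219 called higher and 7 to 214 lower, and 486 to 1092 and 616 to 1095 by the looser rule. A lone library was assumed to vary like the other genotype. The limma-voom calls included all 12.

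Small differences changed sign. Without rescaling, log2 fold changes were 0.11 for Igf2r, 0.010 for Mest, 0.10 for Srebf1 and 0.019 for Tgtp1. The median of the TGFβ ligands, receptors and regulators was then 0.085. With protein-coding sum scaling they were 0.027 for Igf2r, 0.023 for Srebf1 and 0.031 for that median. Tgtp1 was 0.0031 with limma-voom. Leaving out 1 library gave -0.0033 to 0.059 for Ifitm3, -0.16 to 0.11 for Igf2r, -0.0033 to 0.63 for Nid2, -0.074 to 0.014 for Srebf1 and -0.45 to 0.36 for Tgtp1. The log2 fold change of Pmvk lay between -0.0865 and 0.15. The cause was not tested. With 2 pools a genotype, genes near the filter of low values were measured least precisely.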
